A study of Triticum aestivum with 6 samples.

Results

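The 135 genes described here are those of a table of wheat root transcripts whose identifiers place them on the long arms of chromosomes 1A, 1B and 1D. They were taken by the start of the identifier out of 2578 listed items, of which 1916 name a chromosome arm, and comprise 59 genes of 1AL, 44 of 1BL and 32 of 1DL. The table itself was selected on the contrast between the treatments, since the smallest ratio in it is 2.00-fold and 0 items lie below 2-fold. Every value below comes from that same contrast and is a description, with no test. The short arms of the same chromosomes, with 133 listed genes (44 on 1AS, 51 on 1BS and 38 on 1DS), served as the reference.

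Root transcripts of the bread wheat cultivar Chinese Spring (Triticum aestivum, a hexaploid) were compared between a treatment with fungal signals and a control, with 3 RNA libraries from biological replicates in each. In the signal treatment (molecular signals communication, MSC), each pot of 15 plants held 15 bags of a 0.25 µm membrane, each with 25 g of inoculum of the arbuscular mycorrhizal fungus Rhizophagus irregularis BGC-HEB07D, so that soluble molecules could pass while roots, spores and hyphae stayed apart. In the non-mycorrhizal control (NM), the same number of bags held 20 g of inoculum that had been steam-sterilised, with a filtrate of unsterilised inoculum put back. All pots held steam-sterilised soil and quartz sand and stood outdoors, and the growing fungus, the mass of inoculum and its sterilisation differ together between the groups and cannot be told apart. The deposited table gives 1 FPKM value (sequenced fragments corrected for the length of the transcript and the size of the library) for each treatment and none for single libraries, so no spread between root samples, standard error or p-value can be given for any gene. The depth of the libraries is unknown.

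Bread wheat carries 3 related subgenomes, A, B and D, and most of its genes therefore exist in several homoeologous copies, one in each subgenome, which code for nearly the same protein and often lie on the matching chromosome arm. The long arms of group 1 are best known for the loci of the high-molecular-weight glutenins, storage proteins of the grain that give dough its strength, and the short arms for gliadin and low-molecular-weight glutenin loci; these are genes of the endosperm and not of the root. Arbuscular mycorrhizal fungi release lipochitooligosaccharides and short chitin oligomers, which plant roots perceive through receptor kinases with LysM domains, and which set off calcium signals in root cells before any contact. The table does not pair its identifiers with gene names, and 0 of the 135 matched the reference table of wheat genes, so none of the genes below can be assigned to these functions, and copies on the 3 arms cannot be matched to one another by sequence.

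Most of the listed long-arm genes had the larger value in MSC roots, but decreases made up about 1 gene in 3. Of the 135, 91 were higher and 44 lower in MSC, 67.4% against 32.6%. Among all 2578 listed items 79.8% were higher and 20.2% lower. On the short arms 108 were higher and 25 lower, 81.2% higher, and on the 17 long arms of the other groups 83.2% of 1064 genes were higher. With MSC values rescaled so that both treatments had the same upper quartile over the listed items, a log2 shift of -1.04, 26 long-arm genes were still at least 2-fold higher and all 44 lower ones at least 2-fold lower, which turned the split to 37.1% higher. The same rescaling gave 63.2% higher on the short arms and 61.9% higher over all listed items. All listed decreases pass the limit under this shift by construction, and genes that it would carry past 2-fold but that are not listed were not analysed here.

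The 3 subgenomes contributed unequally. On 1AL, 39 genes were higher in MSC and 20 lower, which is 66.1% higher. On 1BL, 28 were higher and 16 lower, 63.6% higher, the lowest share of the 40 arms named in identifiers. On 1DL, 24 of 32 were higher and 8 lower, a share below the median over the 40 arms of 79.0%. After rescaling, the shares of higher genes were 37.5% on 1AL and 27.3% on 1BL, while 1DL had 8 genes in each direction.

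The short arms of the same chromosomes did not follow that order. On 1AS, 33 of 44 genes were higher and 11 lower. On 1BS, 46 were higher and 5 lower, 90.2% higher, the highest share of the 40 arms. On 1DS, 29 were higher and 9 lower, 76.3% higher. Chromosome 1B therefore held both ends of the range, its long arm at the bottom and its short arm at the top, while 1DL and 1DS had nearly the same share. The arms were picked for description with their shares already known, and the number of annotated genes per arm was not used here, so the counts are not rates.

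**Figure D1:**
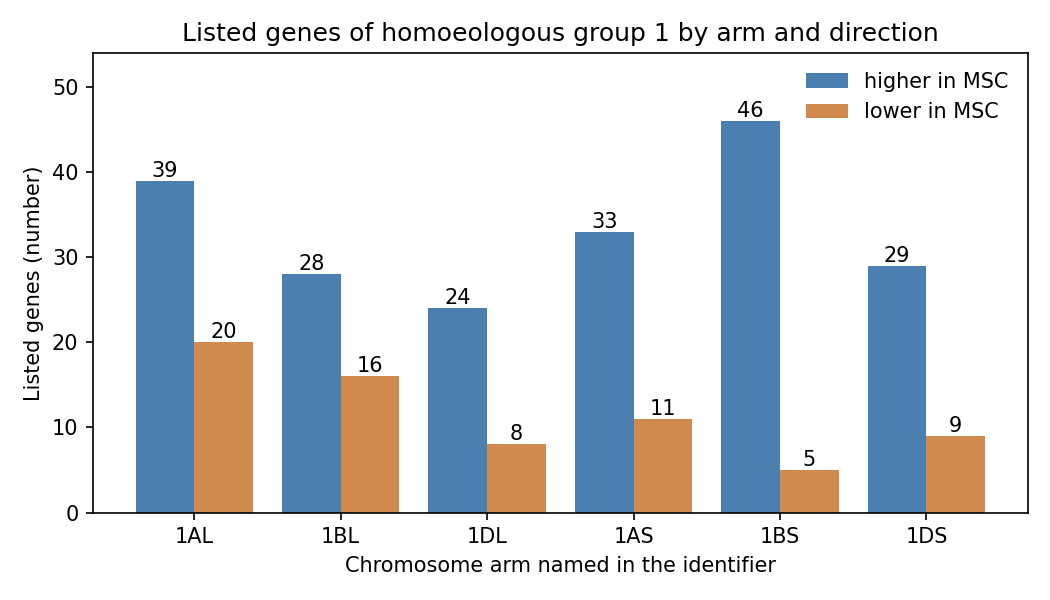
Number of listed genes (vertical axis) on each long and short arm of group 1 (horizontal axis), with separate bars for genes higher and lower in MSC than in NM. Decreases number 20 on 1AL and 16 on 1BL but 11 on 1AS and 5 on 1BS. With the treatments rescaled to equal upper quartiles, the long arms keep 44 decreases and 26 increases, 37.1% higher against 61.9% over all listed items. Under this shift all listed decreases stay by construction and only increases can drop out.

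The 44 long-arm genes that were lower in MSC had a high median level, although 7 of them stayed under 1 FPKM in both treatments. The median of the 44 was 12.0 FPKM in NM against 4.75 FPKM in MSC, compared with 5.71 and 2.06 FPKM for all 522 lower items. By arm, the median of the lower genes went from 8.70 to 3.17 FPKM on 1AL, from 15.7 to 4.75 FPKM on 1BL and from 19.3 to 9.24 FPKM on 1DL. On the short arms the lower genes had medians of 3.90 and 1.56 FPKM in the same order, and on 1BS it was 1.68 FPKM in NM.

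The long-arm genes that were higher in MSC sat at lower levels. Their median was 1.56 FPKM in NM against 5.05 FPKM in MSC, close to the 1.37 and 5.20 FPKM of all 2056 higher items. The increases on 1BL were the least abundant, with medians of 0.868 and 3.00 FPKM. On 1DL the medians were 1.35 and 3.96 FPKM, and on 1AL 2.27 and 5.67 FPKM. On each of the 3 arms the median MSC level of the increases was below that of the short arm of the same chromosome, which was 6.36 FPKM on 1AS, 6.69 FPKM on 1BS and 8.12 FPKM on 1DS.

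**Figure D2:**
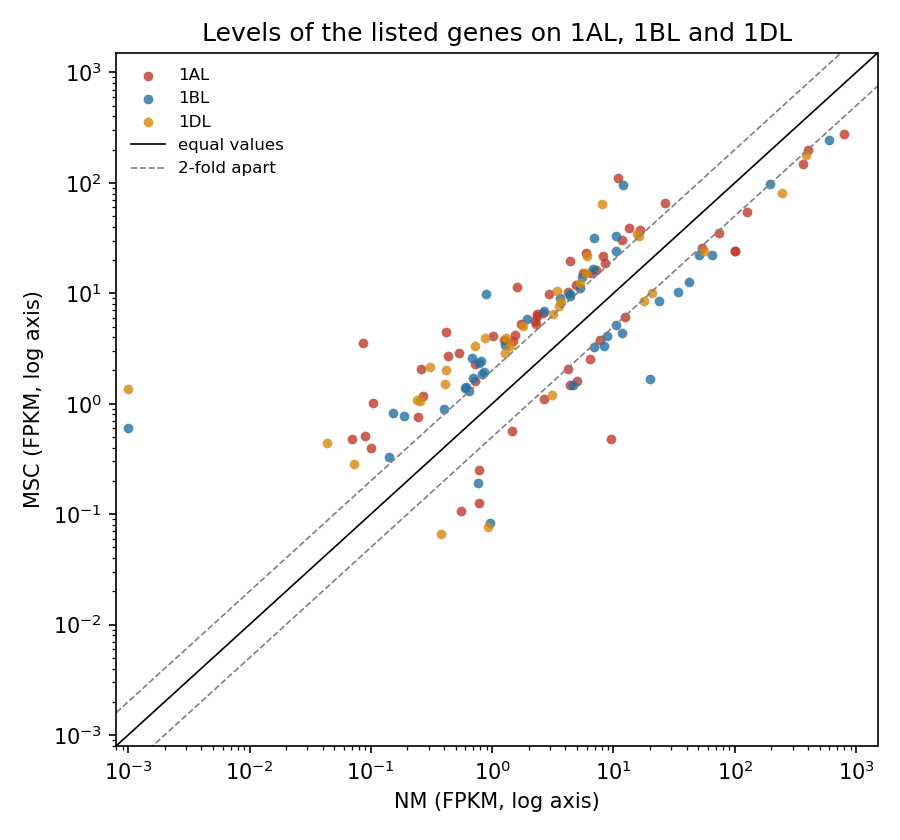
Level of each of the 135 long-arm genes in NM (horizontal axis, FPKM, log scale) and in MSC (vertical axis, FPKM, log scale), coloured by arm, with lines of equal values and of 2-fold difference. Both treatments are shown as deposited. Above 100 FPKM in NM every point lies under the line of equal values, but a cut on NM favours decreases, since it places increases by their lower value. The 2 points at the left edge are listed at 0.001 FPKM in NM.

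Among the long-arm genes, the share of decreases was highest in the most abundant class. Here each gene is placed by its value in the treatment where it is higher, a level that itself depends on direction. Between 1 and 10 FPKM, 51 long-arm genes were higher and 13 lower, 79.7% higher, as in the whole table (79.2%). Between 10 and 100 FPKM, 28 were higher and 14 lower, 66.7% higher against 81.6% in the whole table. At 100 FPKM or more, 1 was higher and 10 were lower, 9.09% higher against 62.6% in the whole table. Below 1 FPKM, 11 were higher and 7 lower, 61.1% higher against 82.8% in the whole table.

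The arms parted in the middle of that range. Between 10 and 100 FPKM, 1BL had 7 higher and 8 lower genes, 1AL had 14 and 3, and 1DL had 7 and 3. In the same band the short arms had 10 higher and 4 lower genes on 1AS, 17 and 0 on 1BS, and 10 and 0 on 1DS. The 8 lower genes of 1BL ran from 10.4 to 64.5 FPKM in NM and from 1.69 to 22.5 FPKM in MSC. The 7 higher genes of 1BL in that band ran from 5.32 to 11.9 FPKM in NM and from 11.2 to 95.1 FPKM in MSC. With at least 5 FPKM in the higher treatment, 1BL had 13 genes in each direction, where 79.0% of all listed items were higher. Placed by the mean of both treatments, the arms parted less between 10 and 100 FPKM. There 1AL had 12 higher and 5 lower genes, 1BL 5 and 6, and 1DL 5 and 3, out of only 17, 11 and 8 genes. Over all listed items 81.8% were higher in that band. The short arms then had 5 and 4 on 1AS, 13 and 0 on 1BS, and 11 and 1 on 1DS.

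The most abundant long-arm transcripts were lower in MSC on all 3 arms. The most abundant on 1AL stood at 799.6 FPKM in NM against 275.8 FPKM in MSC, a 2.90-fold lower level, and ranked 4th in NM among all listed items. That of 1BL stood at 598.2 FPKM in NM against 243.7 FPKM in MSC, 2.45-fold lower, and ranked 9th. That of 1DL stood at 386.7 FPKM in NM against 177.7 FPKM in MSC, 2.18-fold lower, and ranked 15th. In both treatments the 3 genes stood in the order A, B, D.

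Further abundant decreases followed on each arm. On 1AL, a gene at 398.1 FPKM in NM had 198.7 FPKM in MSC, and one at 368.2 FPKM had 149.1 FPKM. A gene of 1AL at 125.6 FPKM in NM had 54.7 FPKM in MSC, and a pair of identifiers both at 100.3 FPKM had 24.0 FPKM. That pair shares the 9-character code after the arm and has the same 2 values, so it may be 1 sequence listed under 2 identifiers. On 1BL, a gene at 195.1 FPKM in NM had 96.9 FPKM in MSC. On 1DL, a gene at 246.7 FPKM in NM had 80.3 FPKM in MSC, 3.07-fold lower. These 10 decreases spanned 2.00- to 4.17-fold, and 7 of them also had a mean of both treatments of at least 100 FPKM.

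Over all listed items, 40 of at least 100 FPKM were lower in MSC, so the long arms of group 1 held 25.0% of them while holding 8.43% of all lower items and 5.24% of all items. With identical pairs counted once, the count was 9 of 38. 1AL had the most of any named arm, 6, or 5 with the pair counted once, ahead of 1DS and 5DL with 3 each, and 24 of the 40 named arms had 0. The single abundant increase of the long arms was on 1AL. On the short arms 5 genes reached 100 FPKM, all of them on 1DS, with 2 higher and 3 lower; the 3 lower ones went from 132.0, 142.8 and 157.0 FPKM in NM to 64.3, 69.3 and 70.8 FPKM in MSC.

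**Figure D3:**
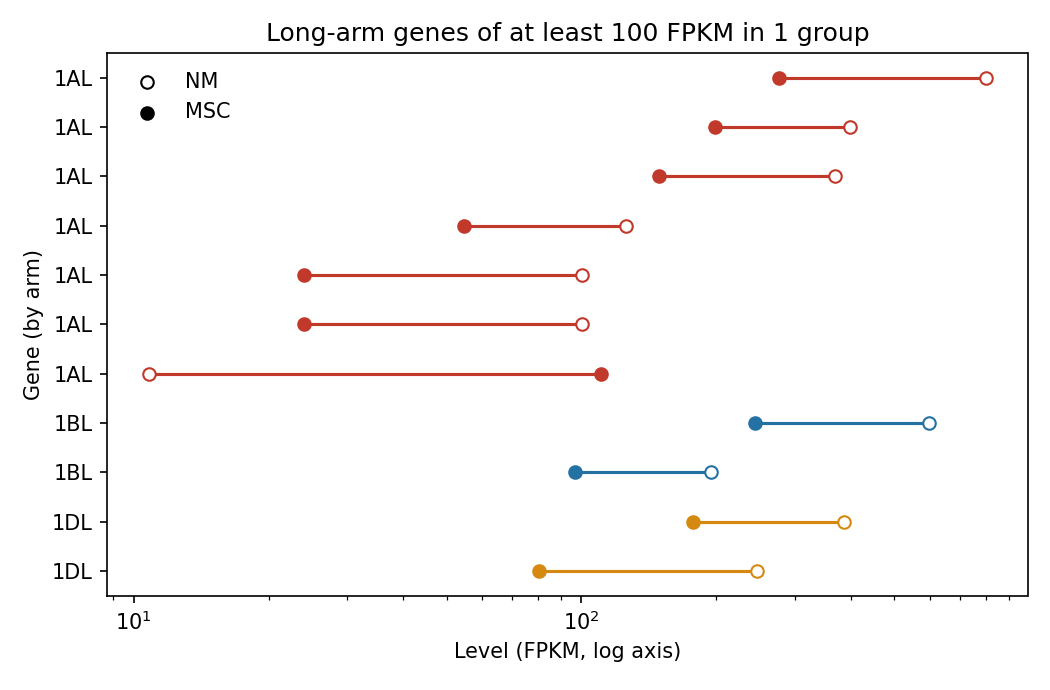
The 11 long-arm genes with at least 100 FPKM in either treatment, 1 line per identifier, labelled by arm on the vertical axis, with the NM level (open circle) and the MSC level (filled circle) in FPKM on a log axis. In 10 of them MSC lies below NM, by 2.00- to 4.17-fold; the exception on 1AL goes from 10.8 to 110.6 FPKM, and 2 lines of 1AL coincide at 100.3 and 24.0 FPKM.

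Because of these few transcripts the summed level of the listed long-arm genes was lower in MSC, although most single genes were higher. The sum over the 135 genes was 4215 FPKM in NM against 2629 FPKM in MSC, a ratio of 0.624. The 91 higher genes went from 326.0 to 1080 FPKM and the 44 lower genes from 3889 to 1549 FPKM. The 10 abundant decreases held 85.3% of the NM sum of the lower genes, near the 81.4% that abundant decreases held of it over all listed items. Among the 124 genes under 100 FPKM in both treatments the sum went from 885.1 to 1193 FPKM, in the other direction; rescaled to equal upper quartiles, the MSC sum of these genes was 580.6 FPKM, below NM.

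As deposited, the sums were lower in MSC on each long arm and higher on each short arm. They were 2238 and 1339 FPKM in NM and MSC on 1AL, 1164 and 741.2 FPKM on 1BL, and 812.7 and 549.1 FPKM on 1DL. On the short arms they were 268.2 and 379.7 FPKM on 1AS, 255.7 and 697.8 FPKM on 1BS, and 615.8 and 716.9 FPKM on 1DS. Of the 40 named arms, 8 had a lower sum in MSC, and the long arms of group 1 were 3 of them. With MSC rescaled by the shift given above, the MSC sums were 651.3, 360.6 and 267.2 FPKM on 1AL, 1BL and 1DL. The sums of 1AS (184.7 FPKM) and 1DS (348.8 FPKM) were then also below NM, while 1BS (339.4 FPKM) stayed above it. Of the 40 arms, 25 then had a lower sum in MSC. The shift was set on the listed items alone, most of which were higher in MSC. It took their total in MSC from 49741 to 24198 FPKM, against 42420 FPKM in NM. It therefore cannot show whether the contrast between the arms depends on a difference in scale between the treatments.

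The largest increases of the 3 arms were alike in level and size. On the log2(FPKM + 1) scale, which adds 1 FPKM to each value and understates changes of low genes, the largest was that of Traes_1AL_6A527F156, at 10.8 FPKM in NM against 110.6 FPKM in MSC, with a difference of 3.24 and a ratio of 10.2-fold. Next came Traes_1BL_6518E3320, at 11.9 FPKM in NM against 95.1 FPKM in MSC, with a difference of 2.90 and a ratio of 7.98-fold. The third was the largest increase of 1DL, at 7.98 FPKM in NM against 65.0 FPKM in MSC, with a difference of 2.88 and a ratio of 8.15-fold. Each was also the most abundant increase of its arm in MSC, and after rescaling they were still 4.97-, 3.88- and 3.96-fold higher. Whether the 3 are copies of 1 gene was not tested, since no sequence is paired with the identifiers.

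The increases that followed were smaller or started from lower levels. The second largest on 1BL went from 0.883 to 9.85 FPKM, an 11.2-fold ratio and a log2(FPKM + 1) difference of 2.53. The second largest on 1AL went from 1.61 to 11.5 FPKM, 7.14-fold, with a difference of 2.26, and that on 1DL from 6.05 to 21.9 FPKM, 3.62-fold, with a difference of 1.70. In the whole table the increase of Traes_1AL_6A527F156 ranked 28th among 2056, so the long arms of group 1 held none of the 27 largest increases. The short arms held 2 of these, with 12th and 16th place, on 1DS (0.647 to 19.9 FPKM) and 1BS (0.283 to 13.6 FPKM). As the long arms had only 91 of the 2056 increases and the short arms 108, counts this small do not set them apart.

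Among the decreases, the largest of 1BL and the largest of 1AL ranked near the top of the whole table. Traes_1BL_0D8FFB3C2 stood at 19.8 FPKM in NM against 1.69 FPKM in MSC, 11.7-fold lower, with a log2(FPKM + 1) difference of -2.95 that placed 4th among 522 decreases. Traes_1AL_1FFE39A20 stood at 9.63 FPKM in NM against 0.483 FPKM in MSC, 19.9-fold lower, with a difference of -2.84 and 6th place. On this scale no decrease of comparable size was listed on 1DL, where the largest, of the gene at 246.7 FPKM in NM, was -1.61. Nor was one listed on the short arms, where the largest was -1.74. With only 8 decreases on 1DL and 25 on the short arms, such small counts do not set the arms apart. The identical pair on 1AL followed with a difference of -2.02, and the second largest decrease of 1BL went from 41.8 to 12.6 FPKM, a difference of -1.66. By ratio, genes under 1 FPKM in both treatments reached 12.0-fold lower on 1DL and 9.16-fold lower on 1AS.

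The typical change was smaller on the long arms than in the table for increases and about the same for decreases. The median ratio of the 89 increases with a ratio was 2.81-fold, against 3.30-fold on the short arms and 3.21-fold in the whole table. That of the 44 decreases was 2.58-fold, against 2.54-fold on the short arms and 2.51-fold in the whole table. By arm, the median increase was 2.98-fold on 1AL, 2.50-fold on 1BL and 3.06-fold on 1DL, and the median decrease 2.52-fold on 1AL, 2.73-fold on 1BL and 2.47-fold on 1DL. On 1BL the median decrease was thus larger than the median increase, in contrast to the other 2 long arms. On the log2(FPKM + 1) scale the medians of increases were 1.12, 0.95 and 1.08 on 1AL, 1BL and 1DL, with those of decreases at -1.05, -1.17 and -0.99. With at least 1 FPKM in both treatments the medians of increases were 1.15, 1.15 and 1.08, and 1BL was no longer the lowest. Those of decreases were then -1.07, -1.22 and -1.06.

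**Figure D4:**
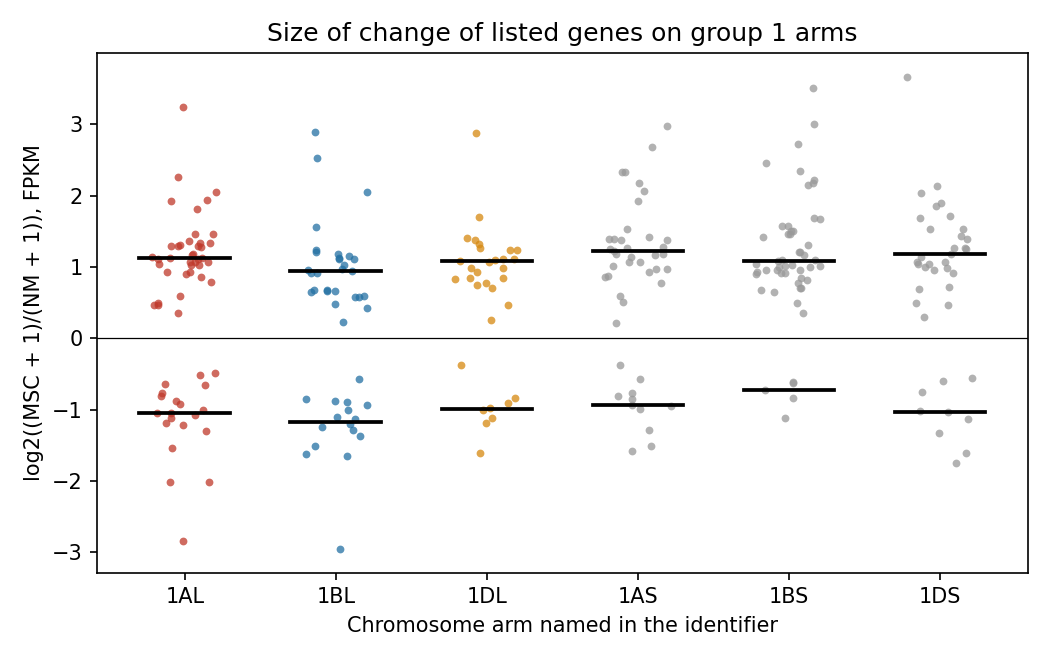
Difference between treatments of each listed gene on the group 1 arms, as log2((MSC + 1)/(NM + 1)) of FPKM values (vertical axis), by arm (horizontal axis), with long arms coloured and short arms grey; points are spread sideways at random, and black bars are medians of higher and of lower genes. The increases on 1BL have the lowest median, 0.95, and its decreases the median farthest below 0, -1.17. With at least 1 FPKM in both treatments the median of the 1BL increases is 1.15, not the lowest of the long arms. Values are as deposited, and rescaling would move points down by up to 1.04, abundant genes the most.

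By share, large increases differed between the long arms more than large decreases did. Among the 133 long-arm genes with a ratio, 27 or 20.3% were at least 4-fold higher in MSC and 10 or 7.52% at least 4-fold lower, where the shares of the whole table were 30.4% and 3.97%. On 1AL 14 genes were at least 4-fold higher and 5 lower, on 1BL 5 and 3, and on 1DL 8 and 2. As shares of the genes with a ratio, the increases were 23.7% on 1AL, 11.6% on 1BL and 25.8% on 1DL. The decreases were 8.47%, 6.98% and 6.45% in the same order. On the short arms 38 or 29.7% were at least 4-fold higher and 5 or 3.91% lower. At 8-fold or more the long arms had 7 increases and 4 decreases, 5.26% and 3.01% of the genes with a ratio, where the shares of the whole table were 13.7% and 1.2%. The short arms had 19 and 2, or 14.8% and 1.56%.

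Several of the largest ratios belonged to genes close to 0. The largest ratio of the long arms, 40.7-fold, was an increase on 1AL from 0.0867 to 3.52 FPKM. On 1DL a decrease from 0.923 to 0.0767 FPKM gave 12.0-fold, and on 1BL one from 0.953 to 0.0833 FPKM gave 11.4-fold. Such values have no stated precision. Only 2 long-arm genes were listed at the lowest value of the table, 0.001 FPKM, both in NM: one on 1BL with 0.607 FPKM in MSC and one on 1DL with 1.35 FPKM in MSC. None of the 44 decreases was listed at it in MSC. The short arms had 5 such genes, all in NM, and 157 items of all those listed were at 0.001 FPKM in 1 treatment. No fold is given for them.

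At the other end, ratios close to the limit of the table were about as frequent among the long-arm decreases as among all listed ones. Ratios under 2.5-fold made up 34.8% of the long-arm increases and 47.7% of the decreases, against 28.0% and 49.2% over all listed items with a ratio. By arm, ratios under 2.5-fold were found for 10 of 39 increases on 1AL, 13 of 27 on 1BL and 8 of 23 on 1DL, and for 10 of 20, 7 of 16 and 4 of 8 decreases on these arms. The member closest to the limit was the abundant 1AL gene at 398.1 and 198.7 FPKM, a ratio of 2.00-fold. The closest on 1BL was a decrease from 10.4 to 5.17 FPKM, 2.01-fold, and on 1DL an increase from 3.20 to 6.52 FPKM, 2.04-fold. Genes just outside the limit were not analysed here.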

How the data were processed

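RNA from about 100 mg of root per biological replicate was enriched for polyadenylated transcripts and sequenced (mean read length 150 bp), per the labels' protocols. The authors deposited FPKM values, 1 per treatment; the signal treatment's column is headed MF, as its samples' descriptions say. TopHat2, Cufflinks and RSEM 1.3.0 stand in the submitters' processing notes with no role given. Genome build, annotation, test and thresholds: not given in the sources used here. Within a tolerance of 0.01 step, all 4999 values above 0.001 are multiples of 1/300, the step expected of means over 3 values that have 2 decimals, so 0.001 was read as a stand-in for 0 and no reads could be recovered.

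Arms were read from the identifiers. Changes were computed from the deposited values as ratios and as log2((MSC + 1)/(NM + 1)). Members, lists and arms were chosen with earlier results of these data known. By rule, the 2 largest increases and decreases with at least 5 FPKM are printed by identifier, and other genes, the largest and most abundant of each arm included, by values. The 100 FPKM class and the other members shown were picked after their values were seen. Alternatives were other pseudocounts, filters, rescaling, identical copies counted once and rows out of identifier order omitted (21 in the table, 1 of them on the long arms, an increase on 1AL). The summaries were tested on simulated data. Software was Python 3.11.15 with pandas 2.3.3, NumPy 2.4.6, matplotlib 3.10.9 and SciPy 1.17.1. No sequence was printed, since the reference (assembly IWGSC CS RefSeq v2.1) matched 0 identifiers.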

Additional observations from a re-analysis of the deposited data

How the results depend on the processing

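Of 150 recomputed values, 98 stayed within 1.5 times for a count, or within the 95% binomial interval of a share or median, 48 moved and 4 turned direction. Counting identical copies once and omitting rows out of order each kept 134 of the 135 long-arm genes, so values under these settings could hardly move. The intervals treat genes as independent draws, which they are not, and they are wide for small arms. The tally is therefore only a description. The long-arm counts were 27 higher and 10 lower at 4-fold or more, where the short arms were 88.4% higher. With at least 1 FPKM in both treatments 53 were higher, and 46 where the higher treatment reached 5 FPKM; these settings keep fewer genes by construction. With at least 1 FPKM in both, 1BL turned to 48.1% higher. Equal upper quartiles left 26 higher, and turned the share to 37.1% on the long arms, 37.5% on 1AL and 27.3% on 1BL. They gave 63.2% on the short arms and 61.9% over all listed items. The share of higher genes was lower on the long arms than on the short arms in all 6 alternatives. These reuse the same values, and the arms were picked with their shares known, so this is no independent support. For the D arms alone, the shares ranged from 80.0% on both 1DL and 1DS at 4-fold or more to 50.0% against 59.1% after rescaling. The median log2 ratio of increases and decreases was 1.42 and -1.31 with a pseudocount of 0.1 FPKM, and 0.57 and -0.77 with 5 FPKM. Under 0.1 FPKM in the lower treatment there were 7 of 91 increases and 3 of 44 decreases. Over all listed items these were 336 of 2056 increases and 51 of 522 decreases. With a mean of both treatments of at least 100 FPKM, a setting chosen after seeing the data, 0 were higher and 7 lower. All listed items had 29 higher and 29 lower under it, and the short arms 0 and 2. No paired analysis was possible because replicates are merged into 1 value per treatment, and fits without 1 replicate were not run for the same reason. The unknown depth limits what low values can show.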
